A study of Rattus norvegicus with 3 samples.

Results

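The nuclear-encoded subunits of respiratory complexes II, III, IV and V, together with the electron carrier cytochrome c, were examined in the motor cortex of untreated rats. Members were the rows whose symbol matched the naming pattern of succinate dehydrogenase (Sdha to Sdhd), of the cytochrome bc1 complex (Uqcr symbols and Cyc1), of cytochrome c oxidase (Cox4 to Cox8 symbols), of ATP synthase (Atp5 symbols) or of cytochrome c (Cycs), outside the mitochondrial chromosome. The rule used names and loci only, and it found 54 rows with 49 symbols among the 30957 rows of each table. RNA came from 3 male rats of the outbred Sprague-Dawley stock, numbered 32, 39 and 68, which received no treatment and form 1 group called normal. The labels give a time of 8 weeks without saying whether it is an age, and 1 mRNA library was made per animal. There was no second condition, so the comparisons below are between genes and between the 3 animals, and differences of animal, dissection and library preparation cannot be told apart.

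The inner mitochondrial membrane carries the respiratory chain, in which complex II passes electrons from succinate to ubiquinone, complex III passes them on to cytochrome c, and complex IV gives them to oxygen. Complexes III and IV pump protons across the membrane, and complex V, the ATP synthase, uses the returning protons to make ATP. All subunits of complex II are encoded in the nucleus, whereas complexes III, IV and V each join nuclear subunits to a few made from mitochondrial DNA. Cortical neurons depend on this pathway for most of the ATP that ion pumping and synaptic transmission consume.

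Several subunits of complex IV exist as a widely expressed form and a form typical of heart and skeletal muscle. Cox8a and Cox8b are such a pair, and so are Cox6a1 and Cox6a2. Upstream sequences are shown for Cox8a, Cox8b and Cox6a2 because the muscle-type forms differed over 2-fold between animals while Cox8a did not, and for Sdha and Atp5g3 because they hold matches to motifs of the respiratory gene regulators NRF1 and ERR. Each is the 250 bases before the annotated start in RefSeq on GRCr8, 5′ to 3′ on the gene's strand, at chr1:213833624-213833873 (minus) for Cox8a, chr1:205408274-205408523 (minus) for Cox8b, chr1:192219717-192219966 (minus) for Cox6a2, chr1:30764303-30764552 (plus) for Sdha and chr3:79220665-79220914 (minus) for Atp5g3. Capitals mark matches to the motifs described next.
Cox8a: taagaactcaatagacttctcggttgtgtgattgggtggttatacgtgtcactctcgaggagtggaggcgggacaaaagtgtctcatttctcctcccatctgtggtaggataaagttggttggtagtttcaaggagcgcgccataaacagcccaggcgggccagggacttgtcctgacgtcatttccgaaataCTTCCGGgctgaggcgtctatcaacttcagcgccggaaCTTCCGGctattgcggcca
Cox8b: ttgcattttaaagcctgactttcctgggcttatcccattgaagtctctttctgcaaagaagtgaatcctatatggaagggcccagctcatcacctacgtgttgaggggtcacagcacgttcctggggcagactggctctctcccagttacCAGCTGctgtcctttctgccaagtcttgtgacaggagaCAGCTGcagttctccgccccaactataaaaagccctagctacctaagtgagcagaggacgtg
Cox6a2: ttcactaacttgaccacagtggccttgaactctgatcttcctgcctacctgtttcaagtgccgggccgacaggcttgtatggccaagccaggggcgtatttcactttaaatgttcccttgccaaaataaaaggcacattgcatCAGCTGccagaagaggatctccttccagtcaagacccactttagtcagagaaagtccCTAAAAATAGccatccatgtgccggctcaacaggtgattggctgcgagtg
Sdha: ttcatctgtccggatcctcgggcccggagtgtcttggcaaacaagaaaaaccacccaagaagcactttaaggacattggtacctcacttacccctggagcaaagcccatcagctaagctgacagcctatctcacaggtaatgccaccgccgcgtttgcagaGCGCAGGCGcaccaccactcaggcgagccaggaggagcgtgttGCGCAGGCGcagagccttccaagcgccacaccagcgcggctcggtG
Atp5g3: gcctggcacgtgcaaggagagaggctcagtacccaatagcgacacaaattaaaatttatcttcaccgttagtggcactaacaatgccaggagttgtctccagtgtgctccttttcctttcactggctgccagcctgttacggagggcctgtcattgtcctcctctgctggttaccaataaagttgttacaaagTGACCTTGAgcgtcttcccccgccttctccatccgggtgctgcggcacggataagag

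Motifs were searched on both strands in the 300 bases from 250 before to 50 after the start, for 40 of the 49 symbols and for all 33469 promoters of the RefSeq table, and no matches of different motifs overlapped in the members. Atp5h, Atp5hl1, Atp5sl, Cox4i2, Cox6a1, Cox6c, Cox6c1, Cyc1 and Uqcrb had no entry. GCGCANGCG, a short form of the site of NRF1, a regulator of many nuclear respiratory genes, was present in 10 members (25%, against 5.80% of all promoters), namely Sdha, Uqcrc1, Cycs, Cox7a2l, Atp5c1, Atp5o, Atp5g2, Atp5g3, Atp5i and Atp5l. CCGGAAG, a core recognised by ETS factors such as GABPA, was present in 13 members (32.5%, against 8.75%). AAGATGGCG, a form of the YY1 site, was present in 3 (7.5%, against 1.73%), and TCAAGGTCA, the site of the estrogen-related receptors, in Sdhd and Atp5g3 (5.0%, against 0.433%). At least 1 of these 4 motifs occurred in 22 of the 40 members and in 14.9% of all promoters. The NRF1, ETS and YY1 forms contain CG, and all promoters were not matched to the members for CpG content, which is given below. The part of CpG content in these shares was not tested. Of the muscle-associated motifs, CTANNNNTA, a loose MEF2 core, was present in 5 members (12.5%, against 22.4%), namely Cox5b, Cox6a2, Cox6b2, Atp5o and Atp5j. The E-box CAGCTG was present in 8 (20.0%, against 15.1%), namely Uqcrfs1, Cox4i1, Cox6a2, Cox7b, Cox8b, Cox8c, Atp5e and Atp5o. Both motifs thus occurred in widely expressed subunits as well as in muscle-type forms. The shares depended on the form searched: with a C added at its 3′ end the NRF1 form was present in 7 members (17.5%, against 4.25%), and with a G added the MEF2 form was present in Cox5b and Cox6a2 (5.0%, against 3.84%).

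In the sequences shown, Cox8a has CTTCCGG, the ETS core read on the other strand, at 57 to 51 and at 19 to 13 bases before the start. Cox8b has the E-box at 100 to 95 and at 62 to 57 bases before the start, and Cox6a2 has it at 107 to 102, with the overlapping MEF2 matches CTAAAAATA and TAAAAATAG from 50 to 41. Sdha has GCGCAGGCG at 89 to 81 and at 46 to 38, and its last capital is the first base of a further match that runs past the start. Atp5g3 has TGACCTTGA, the receptor site on the other strand, at 57 to 49. The 300-base windows of Cox8b and Cox6a2 hold 5 CpG dinucleotides each and that of Cox8a holds 16, where the median was 18 over the 40 members and 7 over all promoters. These matches describe letters only, and no binding was measured.

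Before the members' values, some facts on the libraries bear on them. Depth inferred from short genes was 16550241, 15460924 and 17670986 fragments in animals 32, 39 and 68. Mitochondrially encoded genes took 28.4, 26.4 and 21.4% of summed FPKM (fragments per gene, scaled to gene length and library size), and animal 68 stood apart in its cell type markers. The 6 choroid plexus markers summed to 9.90, 627 and 7471 FPKM in animals 32, 39 and 68 and were each highest in animal 68. The 6 oligodendrocyte markers summed to 3124, 4809 and 8390 FPKM, and the 6 astrocyte markers to 933, 1020 and 1796. The sum of the 6 neuronal markers ran the other way, at 3796, 3391 and 2775 FPKM, although Slc17a7 was highest in animal 39 (521, 537 and 495). All 6 neuronal markers were above the median gene in the limma test described below, where 42.8% of all genes tested were. So were all 6 oligodendrocyte and all 6 astrocyte markers. The 5 striatal markers summed to 85.6, 81.8 and 211 FPKM. In such bulk tissue, fewer cells of a type and less RNA per cell cannot be told apart.

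The members were abundant. Their FPKM summed to 6837, 6572 and 6277 in animals 32, 39 and 68, which is 1.40 ± 0.0280% (SD, n = 3) of all FPKM, and the median row was at 91.0 ± 3.72 FPKM. Of the 54 rows, 48 had a mean of at least 1 FPKM and were tested against the library's median gene (10.3 FPKM) in limma with Benjamini-Hochberg adjustment over 13378 genes. In this test 42 members were higher, where 42.8% of all genes tested were, and 5 were lower, where 42.3% were. The 5 were Atp5hl1, Cox8b, Cox4i2, Cox6b2 and Atp5s. The median member was 3.39 above the median gene on the log2 scale, and the median of all genes tested was -0.01. Members are known abundant genes and the filter removed 6 low rows, so the counts describe the 48 rows only. The nuclear subunits of complex I, counted the same way, had a median of 63.4 ± 0.996 FPKM over 36 rows taken by name, which include Ndufa4 and a pseudogene (63.4 ± 0.996 over the 34 others), with 32 of 34 tested rows higher and 2 lower.

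**Figure D1:**
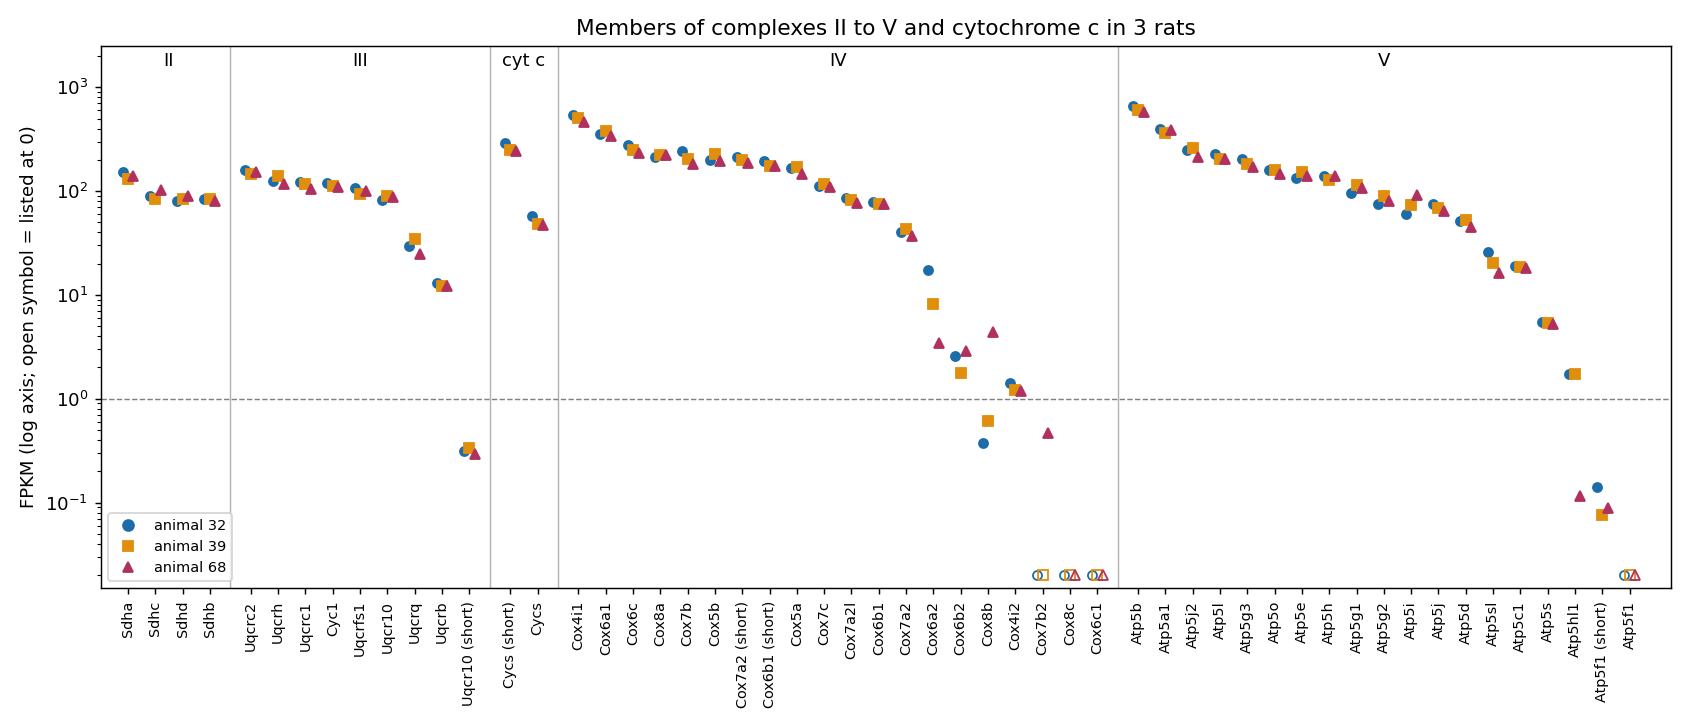
FPKM of the 54 rows in each of the 3 animals on a log axis, ordered by mean within each complex; filled symbols are values above 0, open symbols at the bottom are rows listed at 0, the dashed line marks 1 FPKM, and short marks the row with the shorter locus of a symbol that has 2 rows. Most rows lie above 10 FPKM with the 3 animals close together, and Cox6a2, Cox8b and Atp5hl1 spread widely.

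Complex II was evenly expressed. Sdha, the flavoprotein that oxidises succinate, was at 152, 131 and 141 FPKM in animals 32, 39 and 68, and Sdhb, the iron-sulfur subunit, at 84.7, 84.5 and 80.7. The membrane anchors followed at 90.6, 83.8 and 103 FPKM for Sdhc and 80.5, 83.0 and 89.6 for Sdhd. Sdha was above the other subunits in every animal, while the ranges of Sdhb, Sdhc and Sdhd over the animals overlapped. All 4 were higher than the median gene in limma, and the complex had a median of 89.3 ± 6.11 FPKM (SD, n = 3).

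In complex III the core proteins Uqcrc2 (160, 147 and 154 FPKM) and Uqcrc1 (122, 116 and 104) lay beside the hinge protein Uqcrh (125, 139 and 118) at the top. The catalytic subunits were close behind, with cytochrome c1, Cyc1, at 119, 111 and 109 FPKM and the Rieske iron-sulfur protein, Uqcrfs1, at 106, 93.0 and 99.4. Uqcrc2 was above the rest in every animal, and Uqcrh, Uqcrc1 and Cyc1 had overlapping ranges. Small supernumerary subunits covered a wide range, from Uqcr10 at 81.9, 88.8 and 88.4 FPKM through Uqcrq at 29.6, 34.9 and 24.8 to Uqcrb at 13.03, 12.3 and 12.2. The second Uqcr10 row (chromosome 15, 86123284 to 86123475) was at 0.315, 0.337 and 0.295 FPKM, which is 1 fragment per library. All 8 rows tested were higher than the median gene. The call was weakest for Uqcrb, which was 0.28 above it on the log2 scale (SE 0.093, limma adjusted p = 0.0375), and it was lost without animal 32 or without animal 39. At a filter of 5 FPKM, which raises the median gene, Uqcrb was below it (-0.38, limma adjusted p = 0.00967).

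The low level of Uqcrb belongs to its own row, and a similar annotation elsewhere holds more. LOC685596, which the files describe as similar to the same binding protein and which was picked after its values were seen, lies on chromosome 1 (94718402 to 94718876) and was at 92.7, 87.0 and 88.0 FPKM. It exceeded Uqcrb by 7.14 ± 0.0881 times (SD, n = 3). RefSeq lists a pseudogene of Uqcrb, and how fragments shared by near-identical copies were assigned is not given in the sources used here, so each level of such a pair is uncertain. LOC686442, described as similar to a further subunit of the complex and likewise picked afterwards, was at 200, 220 and 191 FPKM, above every member of complex III that matched the naming rule.

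Cycs, the soluble carrier between complexes III and IV, also had its fragments on more than 1 row. The row of 2100 bases on chromosome 4 (80331227 to 80333326) was at 58.0, 48.1 and 47.2 FPKM, and a row of 318 bases on chromosome 18 (62476383 to 62476700) was at 291, 251 and 245. In all 3 animals the shorter row was the higher, by 5.15 ± 0.109 times, and both rows were highest in animal 32.

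The same arrangement was found for subunits of complex IV. Cox7a2 was at 211, 199 and 187 FPKM on a row of 252 bases (chromosome 14, 52661966 to 52662217) and at 40.1, 43.4 and 36.7 on a row of 4098 bases (chromosome 8, 87209530 to 87213627), a ratio of 4.98 ± 0.352. Cox6b1 was at 196, 174 and 175 FPKM on a row of 261 bases (chromosome 2, 211337271 to 211337531) and at 78.5, 75.4 and 74.4 on a row of 8885 bases (chromosome 1, 89075975 to 89084859), a ratio of 2.39 ± 0.0969. RefSeq lists a Cox6b1 pseudogene on chromosome 2. The ratio between the rows varied little from animal to animal for each of these symbols, whereas levels taken from one or the other row differ several-fold. For Atp5f1, the b subunit of the stalk of ATP synthase, neither row held much signal, with 0.141, 0.0752 and 0.0878 FPKM on one row and all 3 libraries listed at 0 on the other. Both Atp5f1 rows lie wholly within other loci on the opposite strand, LOC100363178 for the longer row and Wdr77 and LOC100911453 for the shorter. The complex I gene Ndufa1 was also listed at 0 in all libraries. What lies behind these values was not tested, and they are not read here as absence of the transcripts.

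**Figure D2:**
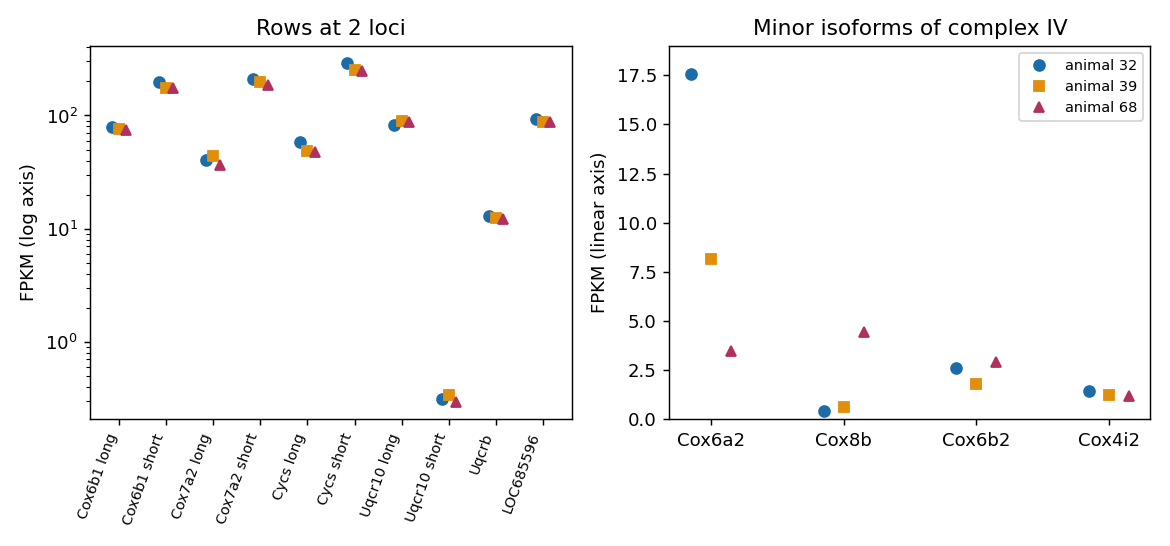
Left, FPKM on a log axis in each animal for the 4 symbols with rows at a longer and a shorter locus that hold signal, and for Uqcrb and LOC685596; right, FPKM on a linear axis for the minor isoforms of complex IV. On the left the shorter row is the higher for Cox6b1, Cox7a2 and Cycs and the lower for Uqcr10; on the right Cox6a2 goes from 17.6 in animal 32 to 3.46 in animal 68 while Cox8b is highest in animal 68, at 4.44.

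Among complex IV subunits with 1 form, Cox6c was at 275, 247 and 233 FPKM, Cox5b at 198, 226 and 193, Cox5a at 166, 172 and 145, and Cox7c at 112, 117 and 110. All are small nuclear subunits that surround the catalytic core, and animal 68 was lowest for each. Cox6a1, the most abundant form of its subunit, lies wholly within the locus of Gatc on the same strand (13.9, 14.8 and 14.3 FPKM). Of 17 rows of the complex tested in limma, 13 were higher than the median gene, 3 were lower and Cox6a2 was neither. The 3 lower ones, Cox4i2, Cox6b2 and Cox8b, are minor isoforms. The median of the complex was 97.6 ± 3.57 FPKM (SD, n = 3) over 20 rows.

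The widely expressed forms Cox4i1, Cox6a1, Cox6b1 and Cox8a each exceeded their tissue-restricted counterpart in all 3 animals. The ratio was taken within each animal as log2(FPKM + 0.1), from the row with the longer locus where a symbol had 2, and an exact two-sided sign-flip permutation test over 3 animals cannot go below p = 0.25, the value each of the 8 pairs gave. Cox4i1, the regulatory subunit found in most tissues, was at 537, 508 and 466 FPKM, and its lung-enriched, oxygen-responsive counterpart Cox4i2 was at 1.43, 1.23 and 1.18. Their log2 ratio was 8.45, 8.58 and 8.51 (mean 8.51, SD 0.064, n = 3), the most even of the pairs of complex IV. Cox6b1 was at 78.5, 75.4 and 74.4 FPKM and the testis form Cox6b2 at 2.57, 1.79 and 2.89, a log2 ratio of 4.95 (SD 0.35), which became 6.20 with the shorter Cox6b1 row. The pair of Cox7a2 and Cox7a2l, the latter a factor of supercomplex assembly, turned direction with the row. Cox7a2l, at 86.7, 82.8 and 77.0 FPKM, was above the longer Cox7a2 row (log2 ratio of Cox7a2 to Cox7a2l -1.04, SD 0.094) and below the shorter one (1.28).

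The muscle-type forms Cox6a2 and Cox8b did not share an order over the animals. Cox6a1 was steady at 356, 375 and 336 FPKM, while Cox6a2 was at 17.6, 8.17 and 3.46, so that Cox6a2 made up 4.70, 2.13 and 1.02% of the pair. Their log2 ratio was 4.33, 5.50 and 6.56 in animals 32, 39 and 68 (mean 5.47, SD 1.11). Cox6a2 was highest in animal 32 and lowest in animal 68, and if its whole locus span were counted its values would stand for at most 217, 94.4 and 45.6 fragments. Cox8a was also steady, at 215, 224 and 222 FPKM, and Cox8b was at 0.379, 0.608 and 4.44, a log2 ratio of 8.81, 8.30 and 5.62 (mean 7.58, SD 1.72). Cox8b passed the filter only through animal 68, and its values would stand for at most 9.16, 13.7 and 115 fragments. In limma Cox6a2 did not pass the test against the median gene (log2 difference -0.37, SE 0.46, adjusted p = 0.480), and without animal 32 it was lower (-0.97, adjusted p = 0.0399).

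Markers that moved beside these genes are given as values, and their part in the result was not tested. The choroid plexus sum was highest in animal 68, where Cox8b was high. That was not particular to the choroid plexus. The oligodendrocyte, astrocyte and striatal sums were also highest there, as were 46.7% of all genes tested, while the neuronal sum was lowest there. Of the 6 skeletal and cardiac muscle markers, Ckm and Myl2 were listed at 0 in every library, and the 6 summed to 13.4, 11.6 and 6.01 FPKM, lowest in animal 68. The sum rests on Acta1 (9.93, 8.60 and 4.89 FPKM) and Tnnt2 (2.83, 2.30 and 0.171), while the myosin heavy chains Myh7 (0.377, 0.448 and 0.659) and Myh6 (0.271, 0.268 and 0.291) were highest in animal 68. Pvalb, which marks fast-spiking interneurons and was picked after its values were seen, was at 149, 110 and 72.2 FPKM, the same order as Cox6a2. That order was not particular to Pvalb. Acta1, Tnnt2 and the neuronal markers Snap25 (1206, 971 and 685 FPKM), Thy1, Uchl1, Syt1 and Gad1 had it too, and the neuronal marker Slc17a7 did not. Cox7b2 was listed at 0, 0 and 0.472 FPKM, the last worth 2 fragments, beside Cox7b at 243, 203 and 182. Cox8c and Cox6c1, the latter a transcribed pseudogene in RefSeq, were listed at 0 in all 3 libraries. A row described as similar to the muscle form 7A1, LOC100910772, was at 0.283, 0.173 and 0.341 FPKM, and it was also picked after its values were seen.

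**Figure D3:**
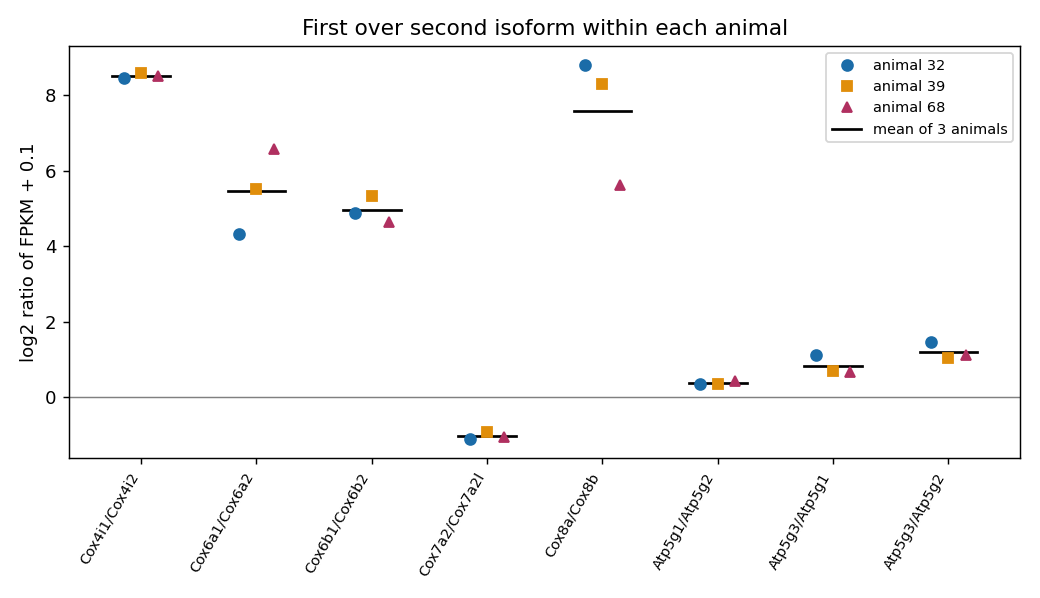
Log2 ratio of FPKM + 0.1 of the first over the second isoform within each animal, with the mean of 3 animals as a bar; above 0 the first is higher. Cox4i1 over Cox4i2 varies least among complex IV pairs, and the ratios of Cox6a1 over Cox6a2 and Cox8a over Cox8b move in opposite directions from animal 32 to animal 68.

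Complex V held the most abundant member. Atp5b, the catalytic beta subunit of F1, was at 665, 601 and 581 FPKM, which put it at rank 49 among all rows by mean, and Atp5a1, the alpha subunit, was at 398, 359 and 390. The remaining F1 subunits were lower, with Atp5e (epsilon) at 134, 151 and 139 FPKM, Atp5d (delta) at 51.8, 52.7 and 45.5 and Atp5c1 (gamma) at 19.1, 18.4 and 18.1. Alpha and beta are present in more copies per enzyme than gamma, delta or epsilon, and the listed locus of Atp5c1 spans 184899 bases. Apart from Atp5f1, stalk subunits lay between these extremes, at 159, 158 and 145 FPKM for Atp5o, 139, 127 and 139 for Atp5h, and 75.03, 68.9 and 64.9 for Atp5j. The locus of Atp5j lies wholly within that of Gabpa on the opposite strand (3.99, 4.80 and 7.04 FPKM), and without stated strandedness their fragments cannot be told apart.

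The membrane subunits of complex V were also well expressed. Atp5j2 was at 251, 262 and 214 FPKM and Atp5l at 226, 205 and 202, and both were lowest in animal 68. Atp5i differed from its partners, at 60.6, 73.2 and 91.1 FPKM, highest in animal 68. The c ring, which turns as protons pass, is encoded by 3 genes that give the same mature protein. Of these, Atp5g3 was at 205, 183 and 172 FPKM, Atp5g1 at 95.4, 114 and 108, and Atp5g2 at 74.8, 89.3 and 79.8. The order was the same in all 3 animals, with Atp5g3 above Atp5g1 by 0.82 (SD 0.24) and Atp5g1 above Atp5g2 by 0.38 (SD 0.050) on the log2 scale, so Atp5g3 was 2.30-fold above Atp5g2 and 1.77-fold above Atp5g1.

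Some rows that match the Atp5 pattern are no core subunits. Atp5s and Atp5sl are named Dmac2l and Dmac2 in RefSeq, and the latter takes part in the assembly of complex I. Atp5s was at 5.43, 5.39 and 5.29 FPKM, below the median gene by 0.92 on the log2 scale (SE 0.11, limma adjusted p = 0.000721). With no filter, which lowers the median gene, it was above it by 0.11 and the call was lost (limma adjusted p = 0.473). Atp5sl was at 25.7, 20.2 and 16.1 FPKM, above the median gene by 0.97 (SE 0.17, limma adjusted p = 0.00343), a call lost at a filter of 5 FPKM (0.31, adjusted p = 0.134). Atp5hl1, a pseudogene in RefSeq, was at 1.74, 1.73 and 0.116 FPKM, worth 14, 13 and 1 fragments, and so was low in animal 68. It passed the filter only through animals 32 and 39. Of 17 rows of complex V tested, 15 were higher than the median gene and 2, Atp5s and Atp5hl1, were lower. The median over its 19 rows was 85.1 ± 8.79 FPKM (SD, n = 3). Without copies and rows at 0, a choice made after seeing the data, it was 119 FPKM over 16 rows, which still include Atp5s and Atp5sl.

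Most members differed little between the animals. Over the 3 animals 42 of the 48 rows tested stayed below 1.5-fold, where 68.2% of all genes tested did, and 3 (Cox6a2, Cox8b and Atp5hl1) exceeded 2-fold between some pair of animals, where 14.5% did. Cox8b passed the filter only through animal 68 and Atp5hl1 only through animals 32 and 39, so their ratios are tied to the filter. At a filter of 5 FPKM only Cox6a2 exceeded 2-fold. Of the 37 members of at least 50 FPKM, 36 stayed below 1.5-fold, where 82.3% of the 1504 genes at that level did. Between animals 32 and 39 only Cox6a2 of the 48 exceeded 2-fold, where 3.14% of all genes did. Between animals 39 and 68, and between 32 and 68, Cox6a2, Cox8b and Atp5hl1 exceeded 2-fold, where 6.14% and 12.8% of all genes did. The median SD on the log2 scale was 0.10 for members and 0.20 for all genes tested. Among genes of at least 50 FPKM it was 0.10 for 37 members and 0.15 for 1504 genes. It was 0.089 for the nuclear rows of complex I. In a limma test of each gene's variance against the trend with abundance, no member and none of the 13378 genes passed (0.0% called), and at an unadjusted p under 0.05 there were 700 genes and 1 member, Cox6a2. On simulated data this test did not recover genes of raised variance, so its count of 0 says nothing about stability.

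The small differences between animals mostly ran one way. Animal 68 had the lowest value of the 3 for 32 of 48 members, where this held for 35.5% of all genes tested. At 50 FPKM or more it held for 23 of 37 members (62.2%) and for 51.5% of genes. Animal 32 had the highest value for 29 of 48 members, where it had for 29.2% of all genes. At 50 FPKM or more it had for 22 of 37 members and 44.7% of genes. Only 10 of 48 members were higher in animal 68 than in animal 32, where 57.1% of all genes were. Abundant genes leaned the same way as the members, with 39.8% of genes of at least 50 FPKM higher in animal 68, beside 8 of 37 members. The median difference of animal 68 from animal 32 was -0.12 on the log2 scale for members and 0.07 for all genes. At 50 FPKM or more it was -0.11 for 37 members and -0.08 for 1504 genes. Scaling moved members and all genes alike. With FPKM rescaled to equal totals 22 of 48 members were lowest in animal 68 (all genes 29.6%), with a median of -0.05 for members and 0.14 for all genes. With median-of-ratios scaling 36 were (42.2%), with medians of -0.21 and -0.02. The neuronal marker sum and the mitochondrially encoded share were also lowest in animal 68, and their part in this was not tested.

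**Figure D4:**
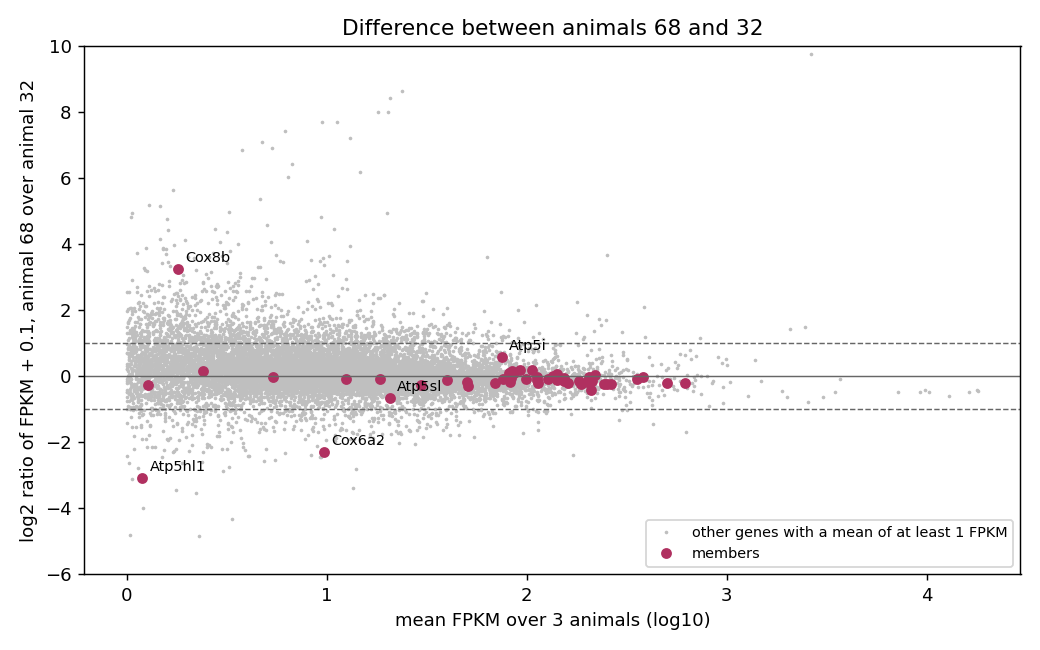
Log2 ratio of FPKM + 0.1 of animal 68 over animal 32 against the log10 of mean FPKM for the 13378 genes tested, with the 48 members in red and dashed lines at 2-fold. Members above 10 FPKM sit close to 0, mostly just below it, and Cox8b, Cox6a2 and Atp5hl1 lie beyond 2-fold.

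Mitochondrially encoded partners were far above the nuclear subunits, and the ratio of their summed FPKM to that of these was lowest in animal 68. The sum of the mitochondrial over the sum of the nuclear rows was 15.3, 14.8 and 11.7 for complex III (1 mitochondrial gene), 19.6, 18.8 and 15.5 for complex IV (3 genes) and 9.18, 9.03 and 7.57 for complex V (2 genes). From animal 32 to animal 68 the mitochondrial sums of complexes III, IV and V were 0.718, 0.705 and 0.768 of their first value, and the nuclear sums 0.938, 0.895 and 0.932. The ratios of sums in animals 32 and 39 were close, and that in animal 68 was the lowest for all 3 complexes. For complex V the mitochondrial sum rests mostly on Mt-atp8 (20315, 18106 and 15033 FPKM), a row of 204 bases that overlaps Mt-atp6. Mt-atp6 was at 3445, 4376 and 3218 FPKM, highest in animal 39, and its ratio alone was not calculated.

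By their medians, assembly factors and regulators were lower than the subunits. Of 38 listed assembly factors 33 were found, with a median of 12.2 ± 0.814 FPKM (SD, n = 3), and 16 were higher than the median gene in limma, 9 lower and 8 neither, beside 42.8% higher and 42.3% lower among all genes tested, which also stand as the background of the lists that follow. The highest were Higd2a, which helps build supercomplexes, at 49.2, 54.6 and 52.5 FPKM, the copper chaperone Cox17 at 52.4, 49.7 and 50.8, and Coa5 at 50.6, 46.8 and 49.4, and the lowest was Cmc1 at 1.88, 1.82 and 2.68. Of 8 associated proteins found, 6 were higher and 2 lower, led by the ADP/ATP carriers Slc25a4 (445, 438 and 400 FPKM) and Slc25a5 (188, 172 and 179) and by Ndufa4 (207, 173 and 187), now placed in complex IV, with Higd1b lowest at 1.56, 2.46 and 2.15. Of 10 regulators of respiratory genes, 3 were higher, 6 lower and 1 neither. The 3 highest were Yy1 (17.8, 16.8 and 19.04 FPKM), Esrra (15.7, 16.4 and 15.2) and Tfam, which maintains mitochondrial DNA (14.7, 14.0 and 16.4), and the coactivator Ppargc1b was lowest at 2.53, 3.47 and 2.42.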

How the data were processed

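Motor cortex mRNA of 3 untreated rats was sequenced, with 1 library per animal. Per the labels, the authors counted fragments for each gene, normalized them and deposited FPKM. The submitters' processing notes list HISAT2 2.0.4 (an aligner), StringTie 1.3.0 (a quantifier) and the build Rnor_6.0, with no statement of which step used each. Strandedness, annotation release and the handling of fragments with several loci were not given in the sources used here. Coordinates of rows are those of the files on Rnor_6.0, and promoters are from RefSeq on GRCr8, and the builds were not mixed.

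Members, gene lists and tests were chosen with earlier results of these data known. Values were analysed as log2(FPKM + 0.1), which understates changes of low genes, for 13378 genes averaging 1 FPKM or more. limma 3.58.1 in R 4.3.3 tested each gene's level against its library's median gene and its variance against the abundance trend, with Benjamini-Hochberg adjustment and a threshold of 0.05, and both were tested on simulated data, where the level test recovered most shifted genes and the variance test recovered none of raised variance. Isoform ratios had an exact sign-flip permutation test. With 3 libraries of unstated preparation, p-values measure the spread between these samples only. Depth was inferred from genes spanning up to 400 bases, of which 85.0, 86.6 and 82.0% came within 0.02 of whole fragments. Genes at 1 fragment set the depth and so are whole by construction. Without them the shares were 75.9, 78.9 and 71.6% in animals 32, 39 and 68. The inferred depth covers counting error only. FPKM of genes with several exons were not turned into counts.

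The motif forms and the promoters shown were chosen with the values known. Named genes are both genes of the isoform pairs, the 3 highest and 3 lowest members of each complex, all of complex II and cytochrome c, members past 2-fold between animals, rows listed at 0, symbols with 2 rows, and the 3 highest and the lowest of each list; other members were named for their role, after their values were seen. Alternatives changed the pseudocount, the filter, the scaling, the limma trend, the summary of a complex and the animals included. The row used for a symbol with 2 rows and the removal of copies were added after seeing the data, as was the longer form of the motifs. Python 3.11.15 with pandas 2.3.3, numpy 2.4.6, scipy 1.17.1 and matplotlib 3.10.9 was used for the rest.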

Additional observations from a re-analysis of the deposited data

How the results depend on the processing

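No paired analysis was possible because all 3 animals form 1 group. With a pseudocount of 1 the log2 ratio of Cox4i1 to Cox4i2 was 7.79 and that of Cox6b1 to Cox6b2 was 4.51, and with 0.01 the former was 8.61. With the higher row of a symbol, an alternative chosen after seeing the data, Cox6b1 to Cox6b2 was 6.20 and Cox7a2 to Cox7a2l was 1.28, a change of sign. A mean of log2 values in place of the median gave 97.7, 41.0, 116, 23.9 and 36.7 FPKM for complexes II and III, cytochrome c and complexes IV and V. Without copies and rows at 0, also added later, cytochrome c was at 51.1 and complex V at 119. At a filter of 5 FPKM, which leaves 44 members to test, 2 members were below the median gene, where 39.9% of all genes were. Past 2-fold were 1 member between animals 32 and 68 (all genes 8.47%) and 1 between 39 and 68 (all genes 3.13%). At that filter Uqcrb was below the median gene (-0.38), Atp5sl (0.31, limma adjusted p = 0.134) and Atp5c1 (0.18, adjusted p = 0.0818) no longer passed, and with no filter Atp5s was above it (0.11), since the median gene itself moves with the filter.

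Leaving out each animal in turn gave 41 to 42 members above the median gene, 5 to 6 below and 0 with variance above the trend (limma). Of all genes tested, 37.7 to 44.2% were then above and 36.4 to 43.8% below. The variance count says nothing about stability, because that test recovered no genes of raised variance on simulated data. Median levels were 85.9 to 91.8 FPKM for complex II, 96.2 to 103 for III, 148 to 162 for cytochrome c, 96.5 to 99.7 for IV and 82.1 to 90.2 for V. Log2 ratios were 8.48 to 8.54 for Cox4i1/Cox4i2, 4.92 to 6.03 for Cox6a1/Cox6a2, 4.76 to 5.10 for Cox6b1/Cox6b2, -1.09 to -0.998 for Cox7a2/Cox7a2l, 6.96 to 8.56 for Cox8a/Cox8b, 0.35 to 0.39 for Atp5g1/Atp5g2, 0.68 to 0.90 for Atp5g3/Atp5g1 and 1.07 to 1.28 for Atp5g3/Atp5g2. Counts past 2-fold each rest on 1 pair of animals, so leaving out an animal was not run for them. Exon lengths are not in the tables used, so depth limits low multi-exon genes by an unknown amount.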
